A study of Mus musculus with 12 samples.

Results

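The genes described here are 10 CC chemokines, Ccl2, Ccl3, Ccl4, Ccl5, Ccl6, Ccl7, Ccl8, Ccl9, Ccl12 and Ccl22, taken by name from the 54532 genes of the count table. RNA sequencing covered 12 libraries of mouse BMDMs, macrophages that are differentiated in a dish from bone marrow cells. The 4 groups of 3 libraries each were R150X cells with OxLDL, WT cells with OxLDL, untreated R150X cells and untreated WT cells. R150X cells came from mice with the GpnmbR150X allele, a premature stop codon in the gene of the membrane glycoprotein GPNMB, and WT cells came from control mice. Per the labels, both genotypes had a DBA/2 by C57BL/6 background backcrossed to C57BL/6. OxLDL is oxidised low-density lipoprotein, which macrophages take up until they fill with lipid and become foam cells. The series asked how GPNMB affects this foaming. The dose and duration of OxLDL and the source of a group's libraries (mouse, culture or pool) were not stated in the labels. Each p-value measures the spread between libraries, which may be technical.

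CC chemokines are small secreted proteins named for a pair of adjacent cysteines near the start of the mature chain. They bind G protein-coupled receptors on leukocytes and set the direction in which these cells migrate. In the artery wall, the axis of Ccl2 and its receptor Ccr2 draws monocytes into atherosclerotic lesions, and the ligands of Ccr1 take part in the same recruitment.

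Total counts per library ran from 14838969 to 18222868, so the floor of 3 counts lay between 0.158 and 0.208 CPM (counts scaled to a common library size). Gpnmb, the mutated gene, separated the genotypes in every library, at 705.6 ± 16.3 CPM in R150X cells against 12494 ± 136 CPM in WT cells with OxLDL, and at 384.8 ± 23.8 CPM against 5324 ± 37.7 CPM in untreated cells (SD, n = 3 each). Xist, expressed from the inactive X of female cells, lay between 227.8 and 348.3 CPM in the 6 R150X libraries. In WT cells it lay between 0.59 and 2.75 CPM untreated and between 0 and 0.069 CPM with OxLDL. The 4 Y-linked genes read beside it were present in all 12 libraries. The sex make-up of the cultures and the genotype therefore cannot be told apart. The part of the Xist difference within WT cells in the comparisons with OxLDL was not tested. All 10 macrophage markers on the list passed the filter on low counts, led by Lyz2 at 13975 to 19809 CPM as group means. Collagen transcripts of stromal cells were also abundant, with 10 stromal markers summing to between 6619 and 14594 CPM in a library. In bulk RNA, fewer cells of a type and less RNA per cell cannot be told apart. In untreated R150X cells, replicate 1 stood apart, with a chi-square per degree of freedom of 9.23 and 10.1 against the others, where other pairs within a group gave 2.31 to 4.76. Without that library 4174 genes were called between the genotypes in untreated cells, against 5054 with it.

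The coding sequences show what the genes share, with 9 of the 10 printed. Each line gives 36 bases of the reference coding sequence, 5′ to 3′ from the GENCODE annotation of GRCm38, with the codons of the adjacent cysteines in capitals.
Ccl2: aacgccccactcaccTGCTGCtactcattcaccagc
Ccl7: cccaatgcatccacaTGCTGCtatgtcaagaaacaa
Ccl12: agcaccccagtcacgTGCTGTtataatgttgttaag
Ccl8: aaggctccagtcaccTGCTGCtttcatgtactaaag
Ccl5: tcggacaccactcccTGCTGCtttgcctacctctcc
Ccl9: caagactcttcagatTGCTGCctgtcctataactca
Ccl6: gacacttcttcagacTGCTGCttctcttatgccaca
Ccl4: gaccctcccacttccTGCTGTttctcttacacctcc
Ccl22: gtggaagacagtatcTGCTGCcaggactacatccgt
The first cysteine stood at codon 32 to 36 in 8 of the 10 genes. In Ccl6 it stood at codon 50 and in Ccl9 at codon 57, so these 2 genes encode a longer stretch before the motif. The closest pairs of coding sequences were Ccl8 and Ccl12 at 70.8% identity, Ccl6 and Ccl9 at 70.4% and Ccl3 and Ccl4 at 70.0%. The longest run of bases shared by any pair was 23, between Ccl6 and Ccl9, which is shorter than a usual sequencing read.

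Of the 10 genes, 9 lie on chromosome 11 in GRCm38, in a pair of blocks. The first block spans 81.2 kb and holds the monocyte chemoattractant proteins, all on the plus strand. Ccl2, the main ligand of Ccr2 (ENSMUSG00000035385), is at chr11:82035571-82037453, and Ccl7, a second Ccr2 ligand (ENSMUSG00000035373), is at chr11:82045712-82047525. Ccl12, a Ccr2 ligand of the mouse (ENSMUSG00000035352), is at chr11:82101845-82103400, and Ccl8, which in the mouse acts on Ccr8 (ENSMUSG00000009185), is at chr11:82115185-82116799. The second block spans 139 kb. Ccl5 (ENSMUSG00000035042), a ligand of Ccr1 and Ccr3, is at chr11:83525778-83530518 on the minus strand. Ccl9 (ENSMUSG00000019122, chr11:83572919-83578636, minus strand) and Ccl6 (ENSMUSG00000018927, chr11:83587882-83593087, minus strand) are macrophage chemokines that act on Ccr1. Ccl3 (ENSMUSG00000000982, chr11:83647844-83649355, minus strand) and Ccl4 (ENSMUSG00000018930, chr11:83662584-83664683, plus strand) are the macrophage inflammatory proteins 1-alpha and 1-beta, which attract monocytes and T cells. Ccl22 (ENSMUSG00000031779), the ligand of Ccr4 that attracts regulatory and helper T cells, is alone on chromosome 8 at chr8:94745590-94751699 on the plus strand. Gm17268 overlaps the locus of Ccl2 and E230016K23Rik that of Ccl6, each on the opposite strand and with no shared exon.

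**Figure D1:**
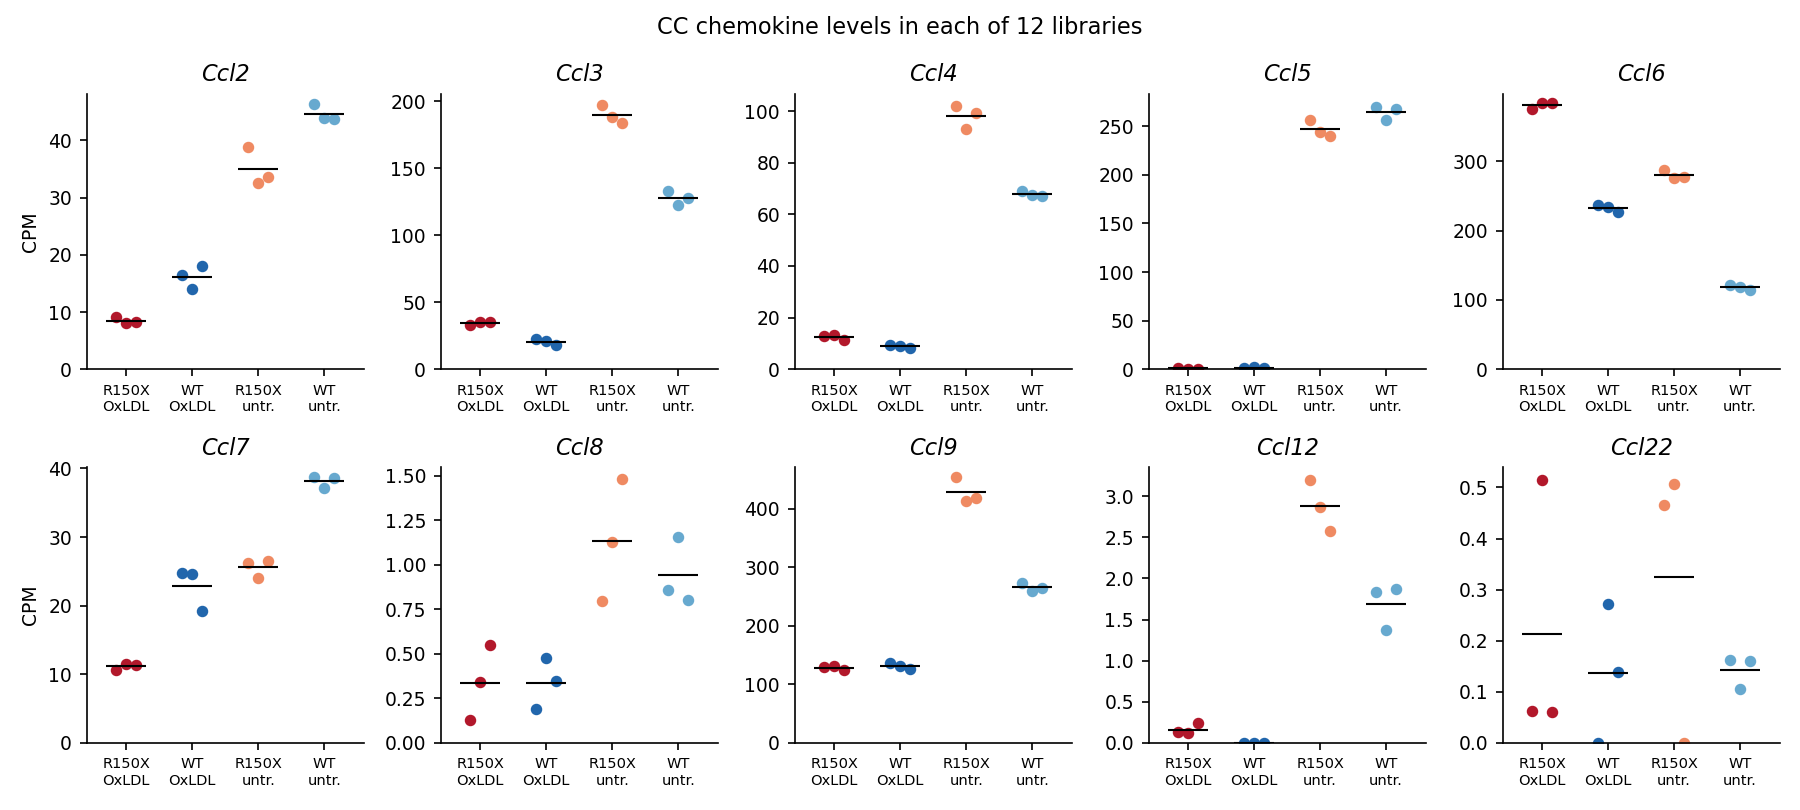
Levels of the 10 CC chemokines in scaled counts (CPM, linear axes that start at 0 and differ between panels), with 1 point per library and a line at the mean of each group of 3. Ccl5 stood between 239.7 and 270.1 CPM in the 6 untreated libraries and between 0.669 and 1.90 CPM in the 6 libraries with OxLDL, while Ccl6 was higher with OxLDL in both genotypes.

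Per exon length, the order of the members changed with OxLDL. In RPKM (CPM per kilobase of a gene's merged exons), untreated R150X cells held 257 ± 9.13 of Ccl5 and 247.7 ± 8.49 of Ccl3, whose libraries overlapped, and untreated WT cells held 275.7 ± 7.31 of Ccl5 and 166.8 ± 6.69 of Ccl3, which did not overlap (SD, n = 3 each). With OxLDL, Ccl6 was first in both genotypes, at 212.2 ± 2.65 RPKM in R150X cells and 129.4 ± 2.90 RPKM in WT cells. It made up 62.1% of the summed RPKM of the 10 genes in R150X cells and 50.2% in WT cells with OxLDL, against 15.3% in untreated R150X cells and 8.34% in untreated WT cells. Ccl5 held 0.303% and 0.529% with OxLDL in R150X and WT cells, against 25.2% and 34.9% in the untreated groups. The length taken for a gene bears on the order. By the longest transcript, Ccl5 reached 369.3 ± 13.1 RPKM in untreated R150X cells and 396.2 ± 10.5 RPKM in untreated WT cells, and it then stood apart from Ccl3 in both. By merged exons, other neighbours in the order whose libraries overlapped were Ccl6 with Ccl4, Ccl4 with Ccl9 and Ccl7 with Ccl2 in untreated R150X cells, and Ccl7 with Ccl3 and Ccl2 with Ccl4 in WT cells with OxLDL. With OxLDL, Ccl5 overlapped with Ccl8 and Ccl12 with Ccl22 in both genotypes, and Ccl8 with Ccl12 in R150X cells. Ccl8, Ccl12 and Ccl22 stayed at or below 5.37 RPKM as group means in each of the 4 groups.

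**Figure D2:**
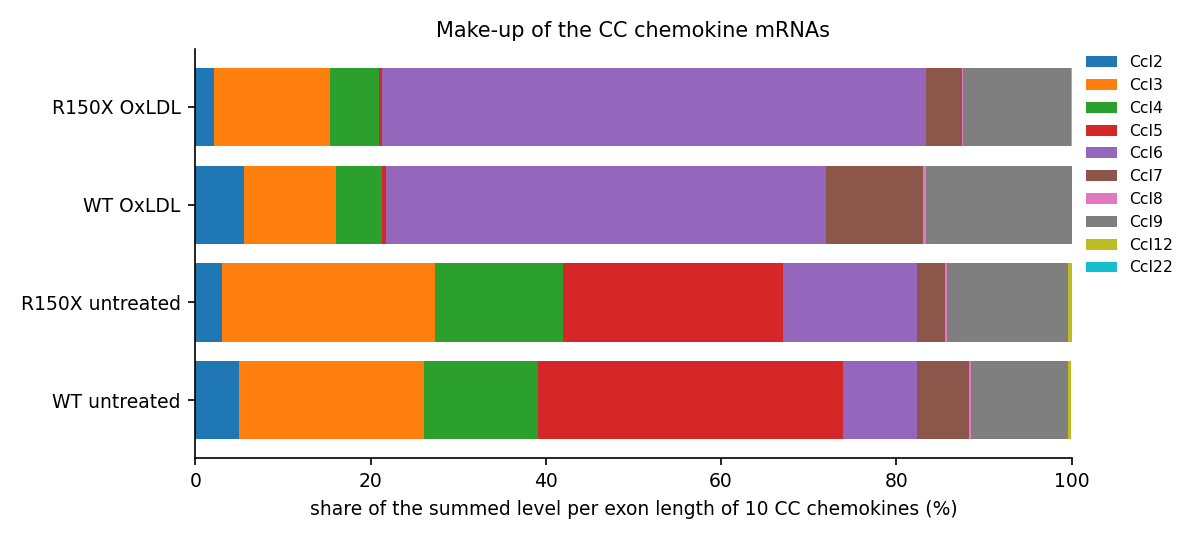
Share of each CC chemokine in the summed level per exon length of all 10 (x axis, percent of summed RPKM), for the 4 groups as means of 3 libraries. Ccl6 took 62.1% and 50.2% with OxLDL in R150X and WT cells, and Ccl5 took 25.2% and 34.9% in untreated R150X and WT cells.

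OxLDL was accompanied by a fall of 8 of the 9 tested CC chemokines in each genotype, and only Ccl6 rose among the 9. Across all 15338 genes tested, 39.0% were called in R150X cells (20.6% lower, 18.4% higher) and 45.8% in WT cells (23.1% lower, 22.7% higher). Calls were made by edgeR's quasi-likelihood test where p, adjusted by Benjamini and Hochberg's method across the tested genes, was under 0.05. Every pair of groups was free of overlap for all 9 members, which held for 46.4% of all genes in R150X cells and for 55.9% in WT cells. The median log2 fold change of the 9 members was -2.04 in R150X cells and -1.48 in WT cells, beside medians of 0.00 and 0.01 over all genes. The summed CPM of the 10 genes was 577.4 ± 5.94 in R150X cells and 433.5 ± 14.4 in WT cells with OxLDL, against 1309 ± 50.8 in untreated R150X cells and 929.9 ± 23.7 in untreated WT cells. The 9 calls in R150X cells held under each alternative setting and with each library left out in turn. In WT cells 8 did so, and the exception, Ccl8, is given with its values.

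Ccl5 had the largest fall among the members with counts in every library. In R150X cells it had 1.63, 0.686 and 0.669 CPM with OxLDL, against 256.5, 243.9 and 239.7 CPM untreated. In WT cells it had 1.19, 1.90 and 0.833 CPM with OxLDL, against 270.1, 256.8 and 267.2 CPM untreated. The groups lay far apart, and the values with OxLDL rested on 11 to 28 counts per library. The log2 fold change was -7.96 in R150X cells (SE 0.135, adjusted p = 4.8e-21) and -7.65 in WT cells (SE 0.131, adjusted p = 1.01e-20), so 0.401% and 0.497% of the untreated level remained. Lymphocytes also make Ccl5, so their markers were read beside it. The 8 markers of T and NK cells summed to 1.57 to 4.02 CPM in each of the 12 libraries, and Cd3e, Cd3d and Gzma were at or below 0.103 CPM as group means. Of these 8 markers 2 were tested, and edgeR's test called 0 with OxLDL in either genotype (at an unadjusted p under 0.05, 1 in R150X cells and 0 in WT cells, and by DESeq2 0 in both).

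Ccl3 and Ccl4, the macrophage inflammatory proteins that lie next to each other, both fell. Ccl3 had 33.1, 35.0 and 35.3 CPM in R150X cells with OxLDL, against 196.8, 188.5 and 183.9 CPM in untreated R150X cells. The WT libraries held 22.6, 21.1 and 18.3 CPM with OxLDL, against 132.9, 122.7 and 127.7 CPM untreated. Both pairs of groups were apart, with a log2 fold change of -2.46 in R150X cells (SE 0.0633, adjusted p = 4.85e-18) and -2.62 in WT cells (SE 0.0679, adjusted p = 6.51e-18). Ccl4 had 13.0, 13.4 and 11.4 CPM in R150X cells with OxLDL, against 102.1, 92.9 and 99.3 CPM untreated. WT cells had 9.33, 9.11 and 8.26 CPM of Ccl4 with OxLDL, against 69.01, 67.34 and 67.02 CPM untreated. Its log2 fold changes were -2.96 in R150X cells (SE 0.0702, adjusted p = 1.36e-18) and -2.93 in WT cells (SE 0.0762, adjusted p = 6.86e-18), again with no overlap.

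Ccl9 and Ccl6, the Ccr1 ligands with a long stretch before the motif, moved in opposite directions. Ccl9 had 128.8, 130.8 and 124.6 CPM in R150X cells with OxLDL, against 455.2, 414.2 and 418.3 CPM untreated. WT cells had 135.6, 130.5 and 126.5 CPM with OxLDL, against 273.6, 259.5 and 264.1 CPM untreated. The groups did not overlap, and the log2 fold change was -1.74 in R150X cells (SE 0.0508, adjusted p = 4.2e-17) and -1.02 in WT cells (SE 0.0504, adjusted p = 3.51e-13). Ccl6 had 375.5, 383.4 and 384.0 CPM in R150X cells with OxLDL, against 287.4, 275.8 and 277.4 CPM untreated. The WT libraries held 236.7, 233.5 and 226.5 CPM with OxLDL, against 121.9, 119.0 and 114.0 CPM untreated. Ccl6 was therefore higher with OxLDL in all libraries of both genotypes, by a log2 fold change of 0.44 in R150X cells (SE 0.0445, adjusted p = 5.04e-08) and 0.97 in WT cells (SE 0.046, adjusted p = 1.65e-13).

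The Ccr2 ligands fell less than Ccl3, Ccl4 and Ccl5 in point estimate, except Ccl12. Ccl2 had 9.09, 8.17 and 8.21 CPM in R150X cells with OxLDL, against 38.8, 32.5 and 33.6 CPM untreated. In WT cells it had 16.4, 14.1 and 18.1 CPM with OxLDL, against 46.3, 43.9 and 43.8 CPM untreated. The groups did not overlap, and the log2 fold change was -2.04 in R150X cells (SE 0.0984, adjusted p = 2.32e-13) and -1.46 in WT cells (SE 0.0893, adjusted p = 1.22e-11). Ccl7 had 10.7, 11.5 and 11.3 CPM in R150X cells with OxLDL, against 26.2, 24.1 and 26.6 CPM untreated. WT cells had 24.8, 24.6 and 19.2 CPM with OxLDL, against 38.8, 37.1 and 38.6 CPM untreated. Ccl7 showed the smallest fall of the 8 in point estimate, with a log2 fold change of -1.20 in R150X cells (SE 0.0955, adjusted p = 1.28e-09) and -0.74 in WT cells (SE 0.0854, adjusted p = 3.43e-07).

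Ccl12, Ccl8 and Ccl22 were close to the floor of detection. Ccl12 had 2, 2 and 4 counts in R150X libraries with OxLDL, against 48, 51 and 47 counts in untreated R150X libraries. The ratio in R150X cells was 0.056 (95% exact interval 0.0237 to 0.113, counting error only). In WT cells Ccl12 had 0 counts in all 3 libraries with OxLDL, against 34, 26 and 35 counts untreated, and against a floor of 3 counts per library it was at least 8.46-fold lower. Ccl8 had 2, 6 and 9 counts in R150X cells with OxLDL, against 12, 20 and 27 untreated, and 3, 7 and 5 counts in WT cells with OxLDL, against 16, 22 and 15 untreated. Its groups did not overlap, and the log2 fold change was -1.73 in R150X cells (SE 0.455, adjusted p = 0.0044) and -1.48 in WT cells (SE 0.476, adjusted p = 0.015). The call in WT cells was lost without untreated WT replicate 2 (adjusted p = 0.066) and without OxLDL-treated WT replicate 1 (adjusted p = 0.0837). Ccl22 did not pass the filter and was not tested. It had 1, 9 and 1 counts in R150X cells and 0, 4 and 2 counts in WT cells with OxLDL, against 7, 9 and 0 counts in untreated R150X cells and 3, 2 and 3 counts in untreated WT cells. These overlapped in every comparison.

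**Figure D3:**
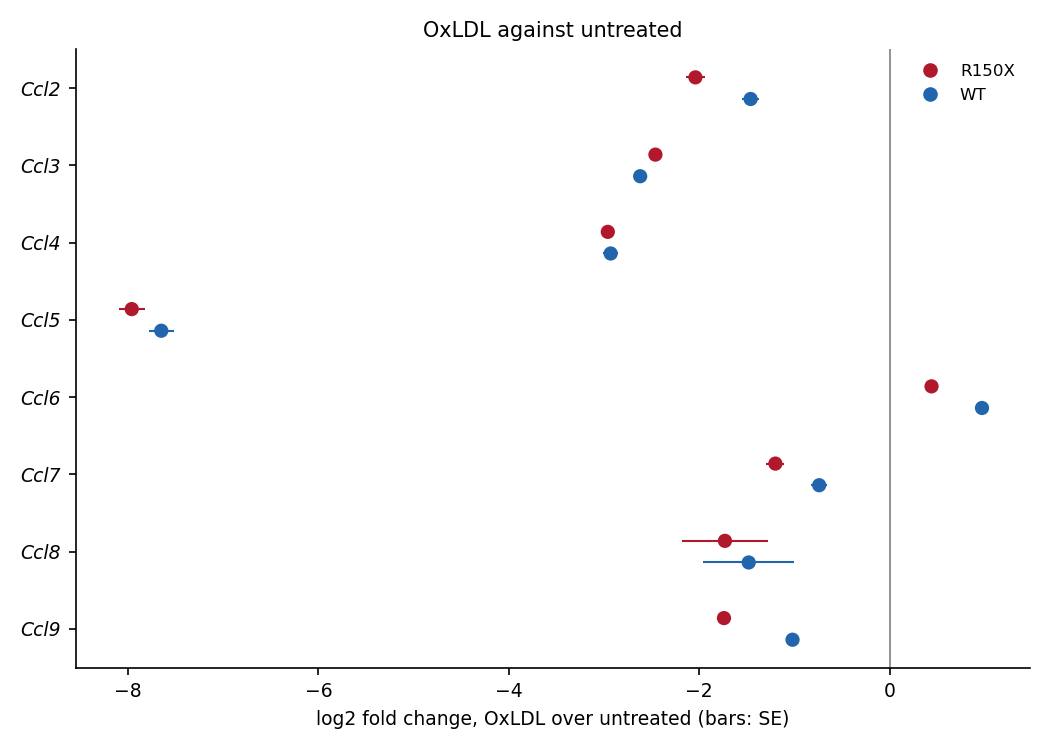
Log2 fold change of 8 CC chemokines with OxLDL over untreated cells (x axis), in R150X (red) and WT (blue) cells, with bars of 1 SE. Ccl5 lies at -7.96 and -7.65, and only Ccl6 lies right of 0 among the 8. All but Ccl3 lie further left in R150X cells in point estimate, with a called difference for Ccl2, Ccl6, Ccl7 and Ccl9. Ccl12 is not drawn because WT cells with OxLDL had 0 counts.

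Among untreated cells, R150X cells held more mRNA of Ccl3, Ccl4, Ccl6 and Ccl9, and less of the Ccr2 ligands Ccl2 and Ccl7. Of the 9 tested members 5 were higher (Ccl3, Ccl4, Ccl6, Ccl9 and Ccl12) and 2 were lower, while 33.0% of all genes were called (18.1% higher, 14.8% lower). The median log2 fold change of the 9 was 0.53, beside 0.01 over all genes. Ccl6, with the largest difference, had 287.4, 275.8 and 277.4 CPM in R150X cells against 121.9, 119.0 and 114.0 CPM in WT cells. It was higher in every R150X library, by a log2 fold change of 1.24 (adjusted p = 3.48e-14, SE 0.0459), or 2.37-fold. Ccl9 had 455.2, 414.2 and 418.3 CPM in R150X cells against 273.6, 259.5 and 264.1 CPM in WT cells, with a log2 fold change of 0.69 (adjusted p = 1.03e-09, SE 0.0489). The groups did not overlap for 8 of the 9 members, all but Ccl8, against 46.1% of all genes.

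The neighbouring pair Ccl3 and Ccl4 was also higher in untreated R150X cells. Ccl3 averaged 189.7 ± 6.51 CPM in R150X cells and 127.8 ± 5.13 CPM in WT cells, with a log2 fold change of 0.57 (adjusted p = 1.57e-07, SE 0.057). Ccl4 averaged 98.1 ± 4.73 CPM in R150X cells and 67.8 ± 1.07 CPM in WT cells, with a log2 fold change of 0.53 (adjusted p = 5.13e-07, SE 0.058; SD, n = 3 each). Neither overlapped between the genotypes. Ccl2 averaged 35.0 ± 3.35 CPM in R150X cells and 44.7 ± 1.43 CPM in WT cells, with a log2 fold change of -0.35 (adjusted p = 0.00216, SE 0.0814). Ccl7 averaged 25.6 ± 1.34 CPM in R150X cells and 38.2 ± 0.927 CPM in WT cells, with a log2 fold change of -0.57 (adjusted p = 2.13e-05, SE 0.0834). Every R150X library lay below every WT library for both Ccr2 ligands.

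Ccl5 was the member of the second block without a call in untreated cells. It had 256.5, 243.9 and 239.7 CPM in R150X cells against 270.1, 256.8 and 267.2 CPM in WT cells, which left the groups apart by less than 1 CPM. The log2 fold change was -0.10 (adjusted p = 0.295), and the interval of 2 SE either side ran from -0.25 to 0.04. Ccl8 was not called either, at 0.28 with an interval of -0.47 to 1.03. Ccl12 averaged 2.88 ± 0.308 CPM in R150X cells and 1.69 ± 0.280 CPM in WT cells, with a log2 fold change of 0.76 (adjusted p = 0.0317, SE 0.262). The gene was no longer called once R150X replicate 1 (adjusted p = 0.108) or 2 (0.0683) was left out, without WT replicate 1 (0.0566) or 2 (0.123), with scaling by library size alone (0.05), without the filter (0.0534) and by DESeq2 (0.106).

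With OxLDL on both genotypes, Ccl3, Ccl4 and Ccl6 remained higher and Ccl2 and Ccl7 lower in R150X cells, and Ccl9 was not called. Called members numbered 4 higher, counting Ccl12, and 2 lower of 9, while 13.0% of all genes were called (6.10% higher, 6.92% lower). The median log2 fold change of the 9 was 0.03, beside 0.00 over all genes, and 6 of the 9 had groups that did not overlap, against 30.0% of all genes. Ccl7 had 10.7, 11.5 and 11.3 CPM in R150X cells against 24.8, 24.6 and 19.2 CPM in WT cells, with a log2 fold change of -1.04 (adjusted p = 1.29e-07, SE 0.0975). Ccl2 had 9.09, 8.17 and 8.21 CPM in R150X cells against 16.4, 14.1 and 18.1 CPM in WT cells, with a log2 fold change of -0.93 (adjusted p = 2.38e-06, SE 0.107). For both, all R150X libraries lay below all WT libraries, at 48.7% and 52.5% of the WT level. Ccl3 differed by a log2 fold change of 0.74 (adjusted p = 2.76e-07, SE 0.073), Ccl6 by 0.71 (adjusted p = 2.89e-10, SE 0.0449) and Ccl4 by 0.50 (adjusted p = 0.000591, SE 0.0917), each with no overlap between the genotypes.

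Ccl9 averaged 128.1 ± 3.16 CPM in R150X cells and 130.9 ± 4.59 CPM in WT cells with OxLDL (SD, n = 3 each). Its log2 fold change was -0.03 with an interval of -0.13 to 0.07 (adjusted p = 0.76). Ccl5, at 0.995 ± 0.550 CPM in R150X cells and 1.31 ± 0.545 CPM in WT cells, was not called at -0.41, with an interval of -1.04 to 0.21. Ccl8 was not called at 0.03, with an interval of -1.12 to 1.17. Ccl12 had 2, 2 and 4 counts in R150X cells against 0 in each WT library. It passed the threshold (adjusted p = 0.0248), but both group means lay under the floor of 3 counts and no fold is given. The call rested on single libraries, and it was lost without R150X replicate 3 (adjusted p = 0.0833) and without WT replicate 1 (0.0738), 2 (0.07) or 3 (0.0571), and Ccl12 failed the filter where only the 2 groups were fitted.

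**Figure D4:**
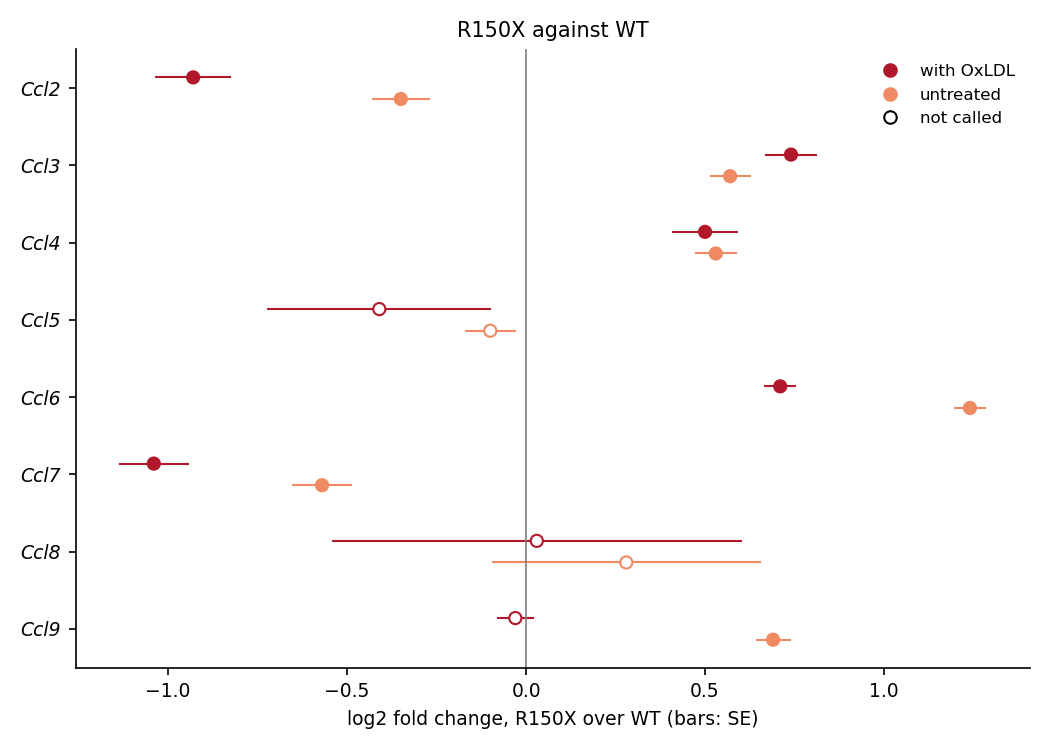
Log2 fold change of 8 CC chemokines in R150X over WT cells (x axis), with OxLDL (dark) and untreated (light), with bars of 1 SE and open points for genes not called. Ccl6 lies at 0.71 with OxLDL and 1.24 untreated, Ccl7 at -1.04 and -0.57, and Ccl9 at -0.03 and 0.69. Ccl12 is not drawn because WT cells with OxLDL had 0 counts.

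The response to OxLDL itself differed between the genotypes for 4 of the 9 tested members. The difference was tested as the OxLDL response in R150X cells minus that in WT cells, for which 8.32% of all genes were called (3.13% higher, 5.19% lower). All 4 members were lower. Ccl9 fell further in R150X cells, by a difference of -0.72 (SE 0.0707, adjusted p = 1.4e-06), and so did Ccl2, by -0.58 (SE 0.135, adjusted p = 0.00911). The rise of Ccl6 was smaller in R150X cells, by -0.53 (SE 0.0638, adjusted p = 1.44e-05). Ccl7 differed by -0.46 (SE 0.129, adjusted p = 0.0284). That call was lost with scaling by library size alone (adjusted p = 0.0785) and without any 1 of 7 libraries. These were untreated R150X replicate 3 (0.0568), untreated WT replicates 2 (0.0722) and 3 (0.0526), R150X with OxLDL replicates 1 (0.077) and 2 (0.0508), and WT with OxLDL replicates 1 (0.0926) and 2 (0.0814).

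The other 5 members were not called for a difference in response. The difference was 0.17 for Ccl3 (interval of 2 SE either side -0.02 to 0.35), -0.03 for Ccl4 (-0.25 to 0.19) and -0.31 for Ccl5 (-0.95 to 0.33). For Ccl8 it was -0.25, with an interval of -1.65 to 1.14, which is too wide to tell a small difference from a large one. The fitted value of Ccl12 depends on how 0 counts are handled and is not given.

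Markers of several cell types were also called for a difference in response. Of 10 macrophage markers 9 were called lower and 0 higher by edgeR (0 higher also at an unadjusted p under 0.05 and by DESeq2), with a median of -0.37, beside -0.02 over all genes. All 4 tested megakaryocyte markers were lower (3 by DESeq2), with a median of -2.67, and 6 of 8 neutrophil markers were lower (5 by DESeq2), with a median of -0.80. Of 10 stromal markers 7 were higher and 1 lower (7 and 0 by DESeq2), with a median of 0.32. The 1 lower call was also lost with the size factors of DESeq2 and with scaling by library size alone. The part of these shifts in the 4 called members was not tested.

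**Figure D5:**
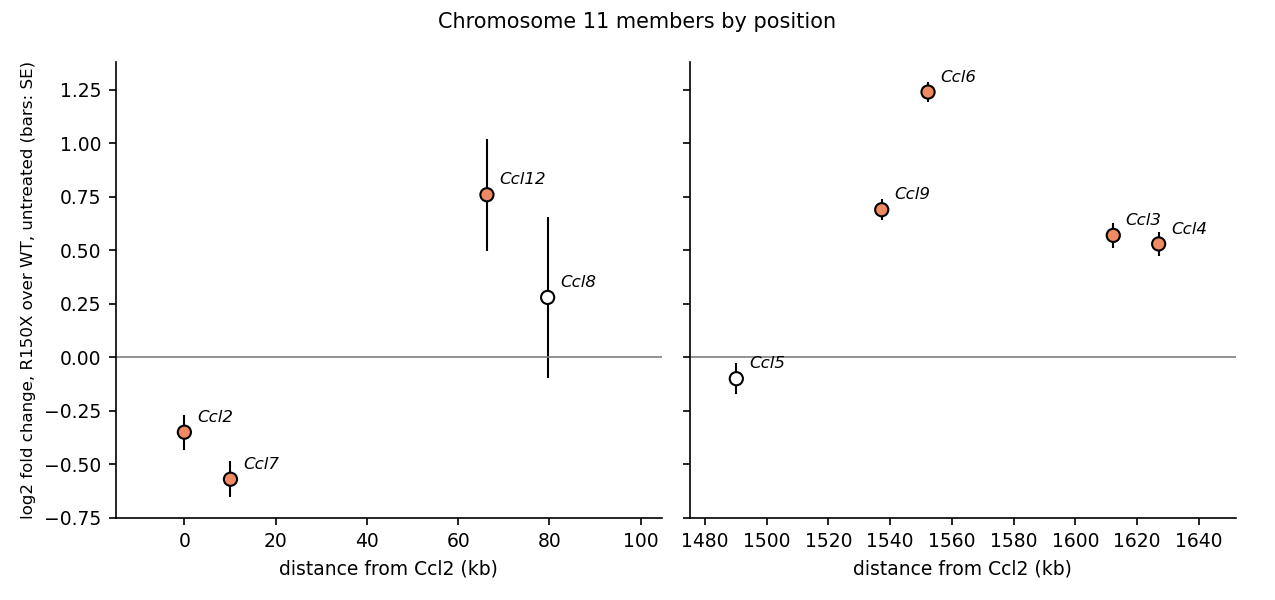
Log2 fold change in untreated R150X over WT cells (y axis, bars of 1 SE) of the 9 tested CC chemokines of chromosome 11 by distance from the start of Ccl2 (x axis, kb; the panels show the first and the second block), with open points for genes not called. Ccl2 and Ccl7, 10.1 kb apart, lie below 0, and Ccl9, Ccl6, Ccl3 and Ccl4 lie above 0, as does Ccl12, whose call was lost when any 1 of 4 libraries was left out.

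Position was read beside these changes. In the first block, Ccl2 and Ccl7 start 10.1 kb apart and were both lower in R150X cells. Ccl12 and Ccl8, which start 66.3 and 79.6 kb from Ccl2, both had few counts. Ccl12 was called higher in untreated R150X cells (0.76, interval 0.24 to 1.29), a call lost under several settings as given above. Its value there stayed between 0.63 and 0.84 under the alternatives. With OxLDL both group means of Ccl12 lay under the floor. Ccl8 was not called in either comparison. The intervals of Ccl8 (-0.47 to 1.03 untreated, -1.12 to 1.17 with OxLDL) include the changes of Ccl2 (-0.35 and -0.93), so Ccl8 cannot be set apart from it. In the second block, Ccl9, Ccl6, Ccl3 and Ccl4 were higher in untreated R150X cells, and Ccl5, at the near end of the block, was not called. Of 23 other tested genes within 500 kb of the second block, 1 was higher and 3 were lower in untreated R150X cells. With OxLDL 10 of the 23 were lower and 1 higher in R150X cells, and 14 were lower in WT cells, against 20.6% of all genes lower in R150X cells and 23.1% in WT cells. The first block had 1 tested neighbour, which was not called between the genotypes. Around Ccl22, 20 tested neighbours held 2 higher and 3 lower genes in untreated R150X cells.

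RefSeq promoter sequences of GRCm38.p6 were found for 6 members, Ccl3, Ccl6, Ccl8, Ccl9, Ccl12 and Ccl22. The 250 bases before the start were searched on both strands. The NF-kB motif was sought in a strict form only, and an AP-1-like motif as TGANTCA, with any base at N. The others were the interferon-stimulated response element and a TATA box (TATAAA). Across 32851 promoters the shares with a match were 0.356%, 6.75%, 2.98% and 12.4% in that order. Ccl12, Ccl8 and Ccl9 held a TATA box, and Ccl9 held an AP-1-like match. The central base of that match is A, where the AP-1 consensus has C or G. The other searches gave no match in these windows, and other forms of the NF-kB motif were not sought. The 150 bases before the start of these 3 genes are printed because they hold the matches, and those of Ccl6 because its response to OxLDL ran the other way. Capitals mark the TATA boxes and the AP-1-like match.
Ccl12 (chr11:82101695-82101844, plus strand): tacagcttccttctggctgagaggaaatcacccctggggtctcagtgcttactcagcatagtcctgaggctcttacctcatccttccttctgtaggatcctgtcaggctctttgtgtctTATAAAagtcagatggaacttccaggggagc
Ccl8 (chr11:82115035-82115184, plus strand): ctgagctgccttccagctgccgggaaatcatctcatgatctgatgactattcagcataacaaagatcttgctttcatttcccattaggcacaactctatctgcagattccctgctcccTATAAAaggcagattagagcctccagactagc
Ccl9 (chr11:83578637-83578786, minus strand): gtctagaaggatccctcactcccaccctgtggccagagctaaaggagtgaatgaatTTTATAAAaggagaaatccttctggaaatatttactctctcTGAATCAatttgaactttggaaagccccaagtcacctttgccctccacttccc
Ccl6 (chr11:83593088-83593237, minus strand): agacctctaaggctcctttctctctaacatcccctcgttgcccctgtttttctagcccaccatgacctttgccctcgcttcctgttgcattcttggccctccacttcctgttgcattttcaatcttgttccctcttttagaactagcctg
The TATA box of Ccl12 began 31 bases and that of Ccl8 32 bases before the start, and both genes stood below 3.2 CPM in all 12 libraries. In Ccl9 the TATA boxes that overlap on opposite strands began 94 and 92 bases and the AP-1-like match 53 bases before the start. A further TATA box lay 224 bases before the start. A match describes the letters of the window and not a bound site.

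The genes whose group pattern was most like each member were sought among 10269 named genes averaging 5 CPM or more, by the root mean square difference of centred log2 group means over 4 groups. Ccl5 was nearest to Cxcl10, an interferon-induced chemokine of the CXC family, at 0.163. Ccl3 was nearest to Il1a, an inflammatory cytokine, at 0.0436, and Ccl4 to Tnip3, an inhibitor of NF-kB signalling, at 0.167. Ccl2 was nearest to Fcrls at 0.0761, Ccl7 to Ly6a at 0.0552, Ccl9 to Acsl1, a fatty acid activating enzyme, at 0.0741 and Ccl8 to Ifi204 at 0.045. Ccl6 was nearest to Tusc1 at 0.111 and then to Rgs1, a brake on G protein signalling, at 0.12. Among the 9 tested members, Ccl8 and Ccl9, of different blocks, were nearest to each other at 0.188, as were Ccl3 and Ccl4 at 0.217 and Ccl2 and Ccl7 at 0.402, while the nearest member to Ccl5 was Ccl4 at 2.46. These distances describe 4 group means and carry no test. The means of Ccl8 rested on 2 to 27 counts per library, and counting error was not carried into its distances to Ccl9 and Ifi204.

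The receptors of these ligands were measured in the same cells. Of 10 CC receptors on the list, 6 were tested. Ccr2, the receptor of Ccl2 and Ccl7, averaged 9.18 ± 1.12 CPM in R150X cells and 18.7 ± 2.19 CPM in WT cells with OxLDL (SD, n = 3 each), with a log2 fold change of -1.03 (adjusted p = 1.56e-06, SE 0.115). Untreated, it averaged 18.7 ± 2.19 CPM in R150X cells and 34.9 ± 1.29 CPM in WT cells, with a log2 fold change of -0.90 (adjusted p = 5.23e-07, SE 0.0981). Ccr2, Ccr1 and Ccr3 were lower in R150X cells with OxLDL, and Ccr2 was lower untreated. The call of Ccr1 with OxLDL (-0.18, adjusted p = 0.0267) was lost when R150X replicate 2 (0.0559) or 3 (0.16) or WT replicate 1 (0.161) or 2 (0.0666) was left out, and in untreated cells Ccr1 was called lower only with scaling by library size alone (0.0285). OxLDL was accompanied by a rise of Ccr1, the receptor of Ccl6 and Ccl9, of 0.51 in R150X cells and 0.61 in WT cells, and by a fall of Ccr2 and Ccr3 in both genotypes. Ccr3 was not called for a difference in response (-0.89, adjusted p = 0.0556). It was called without the filter (0.04) and without untreated R150X replicate 1 (0.0494), R150X with OxLDL replicate 1 (0.0347) or WT with OxLDL replicate 3 (0.0384). Ccr9 and Ccr10, below 1 CPM as group means, were called in none of the 5 comparisons. Of 11 other CC ligands 3 were tested, and Ccl25, known from the thymus and gut, was lower in R150X cells with OxLDL (-0.58, adjusted p = 0.0108) and untreated (-0.71, adjusted p = 0.000594). With OxLDL that call was lost without R150X replicate 3 (0.058) or WT replicate 2 (0.065).

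Genes of pathways that induce CC chemokines were counted on lists chosen for this description. The lists also hold inhibitors of NF-kB signalling, such as Nfkbia and Tnfaip3. Of all genes, 20.6% fell and 18.4% rose with OxLDL in R150X cells, and 23.1% fell and 22.7% rose in WT cells. Between untreated genotypes 18.1% of all genes were higher and 14.8% lower in R150X cells, and with OxLDL 6.10% and 6.92%. Of 16 genes of NF-kB signalling and early cytokines, 14 fell with OxLDL in R150X cells and 13 in WT cells, and 0 rose in either by edgeR, at an unadjusted p under 0.05 or by DESeq2. The median log2 fold change was -0.64 in R150X cells and -0.53 in WT cells. Tnf, an inflammatory cytokine, had a log2 fold change of -3.52 in R150X cells and -3.23 in WT cells, and the cytokine gene Il1b one of -7.81 in R150X cells and -5.53 in WT cells. The difference in response of Il1b was -2.28 (SE 0.232, adjusted p = 2.1e-06). In untreated R150X cells 7 of the 16 were higher and 1, Tlr2, was lower, and 4 were higher without WT replicate 2 or with scaling by library size alone. Il1b was among the higher genes, at 244 ± 9.3 CPM in R150X cells and 116 ± 3.59 CPM in WT cells (log2 fold change 1.07, adjusted p = 6.27e-11). With OxLDL 0 of the 16 were higher and 3 lower in R150X than in WT cells, namely Tlr2, Nfkbia and Il1b. Il1b then averaged 1.09 CPM in R150X cells and 2.50 CPM in WT cells (log2 fold change -1.20, adjusted p = 0.000735). The call of Nfkbia was lost when any 1 of 5 libraries was left out. Of 11 tested genes of interferon induction, 6 fell and 2 rose with OxLDL in R150X cells, and 6 fell and 4 rose in WT cells. Irf7, an interferon-induced transcription factor, had a log2 fold change of -4.48 in R150X cells and -4.93 in WT cells.

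Genes that bind, cut or clear chemokines changed as well. Of 7 tested, 2 rose and 5 fell with OxLDL in R150X cells, and 3 rose and 4 fell in WT cells. Of all genes, 39.0% were called with OxLDL in R150X cells and 45.8% in WT cells. Mmp12, a macrophage metalloproteinase that cleaves chemokines, averaged 4624 ± 289 CPM in R150X cells and 3519 ± 214 CPM in WT cells with OxLDL (log2 fold change 0.39, adjusted p = 2.03e-06). Untreated, it averaged 3240 ± 57.9 CPM in R150X cells and 1620 ± 15.5 CPM in WT cells (log2 fold change 1.00, adjusted p = 9.93e-13). Mmp9 was higher in untreated R150X cells by 1.24 (adjusted p = 3.05e-13). Between untreated genotypes 2 of the 7 were higher and 2 lower in R150X cells. With OxLDL 1, Mmp12, was higher and 4 were lower, among them Mmp13 (-0.61, adjusted p = 5.44e-08) and Ctsc (-0.39, adjusted p = 1.41e-06). Only 2 were lower with OxLDL when R150X replicate 2 or 3 or WT replicate 2 was left out. The difference in response was called lower for 4 of the 7, among them Mmp9 (-1.30), Mmp13 (-0.72) and Mmp12 (-0.61).

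Markers of macrophages and of other cells moved with the same comparisons. The 10 macrophage markers summed to 20387 to 21706 CPM in R150X cells and 24083 to 25630 CPM in WT cells with OxLDL, and to 21988 to 23012 CPM and 20102 to 20368 CPM in untreated R150X and WT cells. With OxLDL, 6 of them were lower and 0 higher in R150X than in WT cells by edgeR (2 higher at an unadjusted p under 0.05 and 0 by DESeq2), whereas in untreated cells 6 were higher and 1 lower. The 5 megakaryocyte markers summed to 26.9 to 28.8 CPM in R150X cells and 54.9 to 58.6 CPM in WT cells with OxLDL, and to 41.6 to 49.1 CPM and 29.3 to 32.1 CPM in untreated R150X and WT cells. Of the 4 that were tested, 4 were lower in R150X cells with OxLDL and 3 higher in untreated R150X cells, and Gp1bb was at or near 0 in all groups. The 10 neutrophil markers summed to 40.6 to 41.8 CPM in R150X cells and 128.9 to 146.5 CPM in WT cells with OxLDL, and to 281.1 to 307.3 CPM and 553.6 to 585.6 CPM in untreated R150X and WT cells. All 8 tested neutrophil markers were lower in R150X cells in both comparisons, and Ly6g and Retnlg, which were not tested, averaged at most 0.357 CPM in each group. With OxLDL, 7 of the 8 were lower in R150X cells (6 by DESeq2), and 6 were lower and 1, Mpo, higher in WT cells, where Mpo was not called without OxLDL-treated replicate 1. The stromal sum was 6619 to 6875 CPM in R150X cells and 6978 to 7559 CPM in WT cells with OxLDL, and 9526 to 9632 CPM and 14514 to 14594 CPM in untreated R150X and WT cells. The 5 adipocyte markers summed to 38.2 to 43.9 CPM in R150X cells with OxLDL and to at most 4.15 CPM in each library of the other groups. Neutrophils and stromal cells can make CC chemokines, and the part of all these markers in the results was not tested.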

How the data were processed

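The deposited table held raw counts per gene for all 12 libraries, as the authors made it. FastQC, HISAT2, featureCounts and DESeq2 and 2 names of 1 genome build, mm10 and GRCm38, are listed with no versions, per the submitters' processing notes. Neither annotation release nor strand setting is given in the sources used here. RNA was isolated with an RNeasy plus kit, per the labels' protocols.

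The members, lists, tests and named-gene rule were chosen with earlier results of these data known. All 10 members were described in 5 comparisons, with Gpnmb, sex-linked genes, the tested CC receptors, up to 3 called genes per context list with the smallest adjusted p, and the 2 genes most like each member. Of these, 1 receptor is not reported here, nor is the coding stretch of 1 member.

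The filter on low counts (filterByExpr of edgeR, with the groups) kept 15338 genes, 9 of them members. Libraries were scaled by the trimmed mean of M-values (TMM factors 0.969 to 1.05), and CPM refers to those sizes. One model with 4 group terms was fitted to the 12 libraries and tested by quasi-likelihood (edgeR 4.0.16, R 4.3.3), with Benjamini-Hochberg adjustment across the 15338 genes. Intervals of fold changes are 2 SE either side. In a simulation of the untreated genotype comparison on 15338 genes, 194 of 200 changed genes were recovered with 6 false calls. Every gene was given the same biological coefficient of variation (0.0608), a measure of spread between libraries, and only genes with higher counts were changed. The simulation therefore does not cover members with few counts, such as Ccl8 and Ccl12, nor the deviation of untreated R150X replicate 1. Its 200 changes were balanced up and down, whereas 5054 genes were called in the data, so it does not test the scaling either. Alternatives were other scalings, no filter, DESeq2 1.42.0, only the groups compared, a replicate block and each library left out in turn. Intervals on counts are exact and, like the floor of 3 counts, cover counting error only. Identities were computed with Biopython 1.88 on GENCODE coding sequences of GRCm38, and motifs were found by pattern matching in RefSeq promoters of the same build. The union of exons gave the lengths for RPKM. Replicates of a group differed by more than sampling noise and were each kept as a sample.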

Additional observations from a re-analysis of the deposited data

Results flagged for a closer look

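The OxLDL response differed between the genotypes, by the test of the response in R150X cells minus that in WT cells, for 4 members. The difference on the log2 scale was -0.72 for Ccl9, -0.58 for Ccl2, -0.53 for Ccl6 and -0.46 for Ccl7. In R150X cells Ccl9, Ccl2 and Ccl7 fell further and Ccl6 rose less, and the call of Ccl7 depended on single libraries as given above.

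The same test was passed by genes of chemokine receptor signalling, of chemokine processing and of pathways that induce chemokines, among them the inhibitor Tnfaip3. It was passed by 8.32% of all genes. Of 18 genes of receptor signalling 3 were lower, as were 3 of 16 of NF-kB signalling and early cytokines and 4 of 7 of chemokine processing. Of 11 genes of interferon induction 3 were lower and 1 higher, and of 8 of interleukin-4 and GM-CSF signalling 2 were lower and 1 higher. The difference was -0.80 for Rgs1 and -0.68 for Rgs2, regulators of G protein signalling, and -0.22 for Arrb2. It was -2.28 for Il1b, -0.49 for Cebpb and -0.29 for Tnfaip3. Among interferon regulatory factors it was -0.68 for Irf1, -0.43 for Irf8 and -0.31 for Irf5. For the GM-CSF receptor chains it was -0.36 for Csf2ra and -0.30 for Csf2rb, and for the mannose receptor Mrc1 it was 0.34. For the metalloproteinases it was -1.30 for Mmp9, -0.72 for Mmp13 and -0.61 for Mmp12. The call of Arrb2 was lost when any 1 of 11 of the 12 libraries was left out, all but untreated R150X replicate 3 (adjusted p 0.0601 to 0.132). That of Tnfaip3 was lost without untreated WT replicate 2 (0.0646), and that of Irf5 without the same library (0.0531) or R150X with OxLDL replicate 1 (0.0516). That of Cebpb was lost without untreated WT replicate 1 (0.057) or WT with OxLDL replicate 3 (0.0558) and by DESeq2 (0.0584). With scaling by library size alone the calls of Arrb2 (0.253), Tnfaip3 (0.106), Irf5 (0.0825) and Csf2rb (0.0942) were lost. That of Arrb2 was also lost with the size factors of DESeq2 (0.0562) and without the filter (0.123).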

How the results depend on the processing

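Counts of genes and of members called stayed within 1.5 times their main value in each of the 5 comparisons and under each alternative run, with 65 counts of genes and 130 counts of members. Of the member values under the alternatives, 553 kept their direction and side of the threshold, 21 lost a call and 9 turned sign, the last among uncalled values only. Of the named context gene values 1371 kept both, 54 lost a call, 5 gained one and 10 turned sign, and 115 of the list counts moved by over 1.5 times, a check added after seeing the data. Scaling by library size alone gave 0.06 for the difference in response of Ccl4 and 0.01 for Ccr10 in R150X over WT cells with OxLDL. Leaving out 1 library gave -0.08 to 0.04 for the difference in response of Ccl4, -0.84 to 0.05 for Ccl5, -0.76 to 0.12 for Ccl8 and -0.28 to 0.77 for Ccr9. For R150X over WT cells with OxLDL it gave -0.47 to 0.40 for Ccl8, -0.19 to 0.85 for Ccr9 and -0.16 to 0.10 for Ccr10. It gave -0.24 to 0.50 for Ccr9 between untreated genotypes and -0.02 to 0.41 for Ccr10 with OxLDL in R150X cells. These genes had few counts or differences near 0, and the cause was not tested. Library size alone shifted the median of all genes by -0.11 with OxLDL in WT cells, and the share of calls that were higher was 31.6% against 49.6% with TMM. That share was 36.2% against 55.0% for R150X over WT untreated, and 66.5% against 37.6% for the difference in response. Same-numbered replicates did not pair, with correlations of deviations from -0.0418 to 0.162, and a replicate block left the counts of members called as they were, with 5355 genes called between untreated genotypes against 5054 without it. The block changed no call of a member. Ccl8, Ccl12 and Ccl22 were limited by depth, with at most 51 counts in a library.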
